A study of Mus musculus with 10 samples.

Results

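Paired extragenic transcription units were followed through a time course in which mouse embryonic stem cells lost SOX2. A transcription unit (TU) is a stretch of a strand that carried continuous nascent RNA when all data were pooled, and an extragenic TU is a unit that the deposited annotation ties to no gene. A TU entered the set if it was labelled extragenic, had more than 10 fragments in at least 2 of the 10 libraries, and had a partner of the same kind on the opposite strand. Partners either overlapped or had 5′ ends within 1000 bp of each other, the 5′ end being the start of a plus-strand TU and the end of a minus-strand TU. The rule kept 1731 TUs, 866 on the plus and 865 on the minus strand, of 7793 extragenic TUs and 28459 TUs of all kinds that passed the same count filter. No fold change or test result entered the rule. The count filter was not blind to change, because a TU could pass it through only those libraries in which its counts were high. TU 37303, described below, passed through libraries of SOX2-depleted cells only. How many TUs passed in such a way is not given here.

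The cells were of the E14 line (IB10 cells for SOX2, per the study's methods), grown on gelatin in serum-free medium with LIF, a MEK inhibitor and a GSK3 inhibitor, and carried SOX2 fused to FKBP in every group. FKBP is a degron, a tag through which the small molecule dTAG-13 sends the fused protein to the proteasome. Control cells received DMSO (not treated, NT), and the other groups received 500 nM dTAG-13 and were collected at 0.5, 1, 2 and 6 hours post depletion (hpd), with 2 replicates in each of the 5 groups. Nascent RNA was read by TT_chem-seq, in which RNA made during 10 min in 2 mM 4-thiouridine is fragmented, captured and sequenced by strand. The labels give no separate cultures for the replicates, so that p-values measure only the spread between these libraries, which may be technical. The line is a single tagged line, and untagged cells given dTAG-13 were not analysed here.

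Active enhancers are bound by RNA polymerase II and are transcribed outward in both directions from a nucleosome-depleted core, giving short-lived RNAs that stable RNA pools hardly show. Nascent RNA methods detect them because they read RNA before it decays. In embryonic stem cells, SOX2 binds many enhancers together with OCT4 at a joint DNA element and helps to keep them open. Opposite-strand transcription outside genes also arises in other ways, such as from unannotated promoters, from RNA that runs past the end of a gene, and from antisense RNA inside a long unit.

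Only part of the set had the layout of a two-way enhancer. The 1731 TUs made 931 pairs, because 114 of them had over 1 partner and the most connected had 6. In 853 pairs the partners overlapped, by a median of 2680 bp or 92.1% of the shorter TU. Of these, 406 were head-to-head, with each 5′ end inside the other TU, so that the strands ran toward each other across the overlap and apart beyond it. A further 366 were nested, with 1 TU wholly inside the other, and 81 were tail-to-tail, with the 3′ ends overlapping. The other 78 pairs did not overlap, 77 of them diverging, with a median of 192 bp between their 5′ ends. In all, 209 of the 931 pairs had 5′ ends within 1000 bp. In the 406 overlapping head-to-head pairs the median distance between 5′ ends was 2230 bp, so that a typical pair began well inside its partner.

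Annotation also limited the label. On their own strand, 378 of the 1731 TUs overlapped a RefSeq gene and 432 a GENCODE gene, and 503 TUs (29.1%) overlapped a gene of either annotation. By RefSeq class, 186 TUs overlapped a protein-coding gene, 69 a long non-coding RNA gene, 84 a pseudogene and 24 a tRNA gene. The other 1228 TUs lay outside annotated genes on their strand. For the other extragenic TUs, 35.6% overlapped a gene of either annotation. The median paired TU was 6860 bp long (3870 bp for the other extragenic TUs) and lay 37.8 kb from the closest 5′ end of a gene TU (38.0 kb for the others), and 81 paired TUs lay within 5 kb of such an end.

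The 6 sequences that follow show DNA at 5′ ends on which the later results turn. Each is 300 bases of the RefSeq assembly GRCm38.p6 (mm10), centred on the 5′ end of the TU and written 5′ to 3′ on its strand. Capitals mark a match to a searched word, and a window without capitals held none. TU 15586 (chr7:66491819-66492118, plus strand) is shown for its steep early fall. TU 14854 (chr6:141601124-141601423, minus strand) and TU 34476 (chr16:11296005-11296304, minus strand) were called lower while their head-to-head partners were not, and each held the SOX core word AACAAT. They are examples, since TU 16265 and TU 12160, called lower at 1 hpd while their head-to-head partners were not, held no SOX core word. TU 7662 (chr4:55461427-55461726, plus strand) and TU 9069 (chr4:55482164-55482463, minus strand) are the partners beside Klf4. TU 6579 (chr3:34747585-34747884, minus strand) belongs to the pair closest to Sox2 and held TGTNATGCA, the middle of the joint OCT4-SOX2 element.
TU 15586: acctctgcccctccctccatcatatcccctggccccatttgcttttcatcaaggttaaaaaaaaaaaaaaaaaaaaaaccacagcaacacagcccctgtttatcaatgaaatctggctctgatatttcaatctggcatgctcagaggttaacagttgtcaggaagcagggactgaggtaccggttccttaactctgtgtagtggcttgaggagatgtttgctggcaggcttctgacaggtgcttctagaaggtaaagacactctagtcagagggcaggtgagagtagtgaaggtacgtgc
TU 14854: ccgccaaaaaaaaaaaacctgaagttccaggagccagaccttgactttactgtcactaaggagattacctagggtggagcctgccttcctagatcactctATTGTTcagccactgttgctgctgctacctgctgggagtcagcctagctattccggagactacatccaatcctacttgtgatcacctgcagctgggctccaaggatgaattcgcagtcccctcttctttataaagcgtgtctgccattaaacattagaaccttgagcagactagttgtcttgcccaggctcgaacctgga
TU 34476: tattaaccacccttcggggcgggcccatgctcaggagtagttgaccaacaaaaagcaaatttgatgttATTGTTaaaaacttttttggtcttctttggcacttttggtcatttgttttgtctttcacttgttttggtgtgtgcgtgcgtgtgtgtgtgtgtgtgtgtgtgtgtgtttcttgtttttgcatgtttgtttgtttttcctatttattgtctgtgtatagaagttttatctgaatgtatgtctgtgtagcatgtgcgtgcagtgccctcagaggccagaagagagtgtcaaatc
TU 7662: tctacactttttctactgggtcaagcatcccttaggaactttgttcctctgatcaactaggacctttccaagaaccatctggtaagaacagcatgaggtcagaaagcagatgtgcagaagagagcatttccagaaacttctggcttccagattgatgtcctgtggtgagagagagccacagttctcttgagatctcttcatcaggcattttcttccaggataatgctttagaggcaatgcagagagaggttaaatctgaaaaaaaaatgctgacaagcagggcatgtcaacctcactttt
TU 9069: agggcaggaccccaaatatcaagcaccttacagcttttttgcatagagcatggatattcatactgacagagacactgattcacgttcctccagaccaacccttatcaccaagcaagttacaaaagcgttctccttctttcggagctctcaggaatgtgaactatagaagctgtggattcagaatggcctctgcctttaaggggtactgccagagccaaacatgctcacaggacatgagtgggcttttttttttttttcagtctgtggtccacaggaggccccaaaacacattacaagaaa
TU 6579: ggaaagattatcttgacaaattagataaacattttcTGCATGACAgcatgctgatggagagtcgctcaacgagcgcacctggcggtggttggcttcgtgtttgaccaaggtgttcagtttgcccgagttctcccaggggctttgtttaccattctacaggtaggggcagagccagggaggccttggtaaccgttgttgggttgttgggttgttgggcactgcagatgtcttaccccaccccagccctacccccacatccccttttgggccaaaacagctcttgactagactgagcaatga

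Motif words were about as common at the 5′ ends of paired TUs as at those of all extragenic TUs. Searched on both strands, a SOX core word (ACAATG or AACAAT, which overlap where AACAATG occurs) stood in 342 of 1731 windows of paired TUs (19.8%) and in 19.8% of the 7793 windows of all tested extragenic TUs. Of the TUs called lower at 1 hpd, 26 of 113 windows (23.0%) held it, and of those called lower at 6 hpd, 63 of 266 (23.7%). The word TGTNATGCA stood in 10 paired windows (0.578%) against 0.693% of all extragenic windows, and the octamer ATGCAAAT, bound by OCT4, in 3.0% against 2.28%. AAGGTCA, bound by ESRRB, stood in 7.63% against 6.9%, and TGACTCA, bound by AP-1, in 6.01% against 5.35%. Windows on the midpoint of the 209 pairs with close 5′ ends held a SOX core word in 46 of 209 (22%). A match is no proof of a site, and a 5′ end drawn from RNA coverage need not lie at the bound DNA.

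Depth ranged from 11131490 to 25854106 fragments per library, and paired TUs took 1.54% to 1.9% of the fragments. The median paired TU averaged 24.1 fragments per library (range 4.2 to 11000), 760 TUs averaged at most 20 and 521 at least 50, so that small changes of most members were not detectable. The Sox2 TU, whose protein and not RNA is the target, read 243 and 283 CPM (fragment counts scaled to a common library size) in NT, 248 and 275 (0.5 hpd), 229 and 255 (1 hpd), 273 and 288 (2 hpd), and 271 and 278 (6 hpd). All 9 stem cell markers were transcribed, with a sum of 3600 to 4620 CPM per library that was 4200 and 4620 in NT and 3600 and 3880 at 6 hpd. Of 5 fibroblast markers only Col1a1 passed the count filter, at 0.312 to 1.16 CPM. The 3 of 5 primitive endoderm markers that passed it summed to 1.96 to 4.2 CPM, the 2 of 5 trophoblast markers to 21.7 to 45.8 and the 3 of 5 neural markers to 25 to 45.8 CPM. Trophoblast markers summed to 39.7 and 45.8 CPM in NT and 21.7 and 26.3 at 6 hpd, and neural markers to 40.3 and 43.5 in NT and 25 and 27 at 6 hpd. Primitive endoderm markers summed to 1.96 and 2.76 in NT and 3.14 and 3.58 at 6 hpd, with Sox7 at 0 in at least 1 library. Most of the trophoblast sum was Tfap2c, at 40.5 CPM in NT (-0.83 at 6 hpd, edgeR adjusted p = 0.00045), and in the neural list Tubb3 (-1.49, adjusted p = 7.5e-06) and Nes (-0.97, adjusted p = 0.00075) fell while Pax6 did not pass the test (0.14, adjusted p = 0.69). These sums moved over the same hours in which paired TUs fell, and their part in those falls was not tested. Fewer cells of a type and less RNA per cell cannot be told apart in such bulk libraries.

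The balance between strands differed widely among pairs. For counts between partners, each TU was used in at most 1 pair, which gave 803 pairs. Over the 10 libraries the weaker strand held a median of 26.9% of the fragments of its pair. In 424 pairs it held at least 25%, while in 118 it held under 5%. The median was 29.2% for the 361 overlapping head-to-head pairs, 27.0% for the 72 pairs without overlap, 28.0% for the 67 tail-to-tail pairs and 21.1% for the 303 nested pairs. Whether reads assigned to the wrong strand contribute to very weak partners was not tested.

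**Figure D1:**
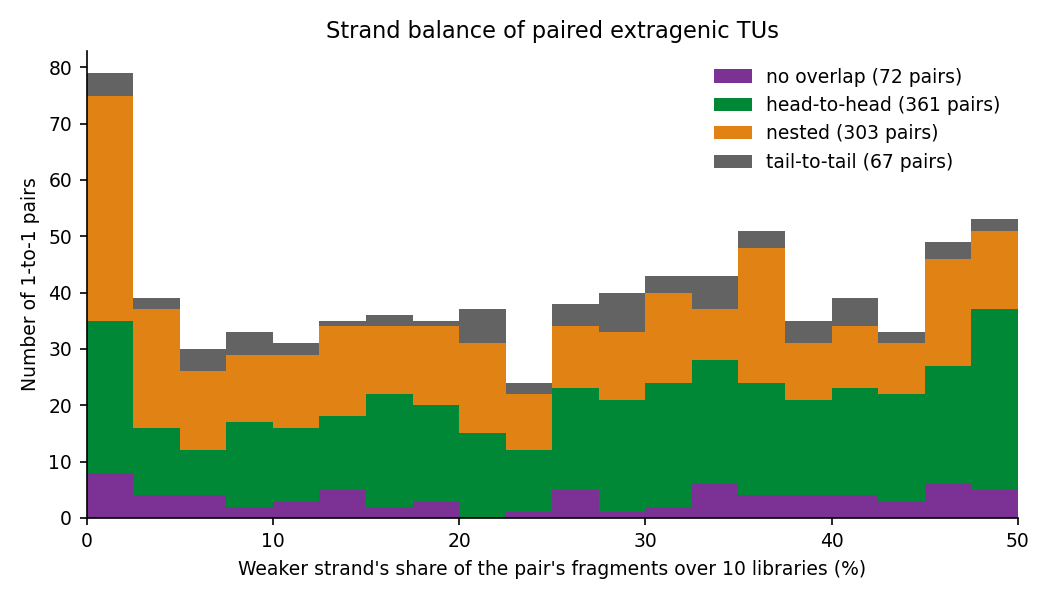
Histogram of the share of a pair's fragments held by its weaker strand (percent, x axis) against the number of 1-to-1 pairs (y axis), coloured by layout. The bin next to 0 is the tallest, and the rest of the 803 pairs spread up to 50%, with a median of 26.9%.

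After depletion, far more paired TUs were called lower than higher. By edgeR's quasi-likelihood test with Benjamini-Hochberg adjustment over all 28459 TUs (adjusted p under 0.05), 17 of the 1731 paired TUs (0.982%) were lower and 4 (0.231%) higher than NT at 0.5 hpd, beside 0.787% and 0.527% of all tested TUs. At 1 hpd, 113 were lower (6.53%) and 15 higher (0.867%), beside 3.61% and 2.15% of all TUs. At 2 hpd, 164 were lower (9.47%) and 37 higher (2.14%), beside 5.57% and 4.26%. At 6 hpd, 266 were lower (15.4%) and 55 higher (3.18%), beside 9.2% and 6.61%. Of the 113 TUs lower at 1 hpd, 87 were lower by more than 2-fold, as were 222 of the 266 at 6 hpd, beside 617 of 1026 and 1708 of 2618 among all TUs. Of other extragenic TUs called lower, 174 of 192 at 1 hpd and 583 of 658 at 6 hpd were. Among TUs that averaged 50 or more fragments, 36 of 58 and 69 of 109 paired TUs were. At that depth, 33 of 50 and 95 of 160 other extragenic TUs were, beside 246 of 649 and 583 of 1457 of all TUs. The median log2 fold change of the paired TUs was -0.076, -0.19, -0.22 and -0.30 at the 4 times, against -0.022, -0.043, -0.04 and -0.036 for all TUs. Other extragenic TUs had medians of -0.10, -0.15, -0.19 and -0.29, and antisense TUs -0.088, -0.19, -0.20 and -0.23. With library totals as the only scaling, the medians moved to -0.11, -0.28, -0.34 and -0.39 for the paired and to -0.056, -0.13, -0.16 and -0.13 for all TUs. Under that scaling 16, 126, 191 and 288 paired TUs were called lower and 2, 6, 20 and 39 higher.

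The counts depended on single libraries. Without NT replicate 2, the numbers called lower were 4, 38, 54 and 117 at 0.5, 1, 2 and 6 hpd. Without replicate 1 and replicate 2 of the time point itself, they were 7 and 9 (0.5 hpd), 40 and 59 (1 hpd) and 143 and 155 (6 hpd), and without 2 hpd replicate 1 they were 75 at 2 hpd. Of TUs called higher at 1 hpd there were 5 and 4 when NT replicate 1 or 2 was left out, 6 and 3 when 1 hpd replicate 1 or 2 was, and 24 and 26 when 2 hpd replicate 1 or 2 was. At 2 hpd, 17 and 13 were higher when NT replicate 1 or 2 was left out and 22 when 2 hpd replicate 1 was. At 6 hpd, 27 were higher without NT replicate 2, and 35 and 26 without 6 hpd replicate 1 and 2. At 0.5 hpd, 0, 1 or 2 were higher without an NT, a 0.5 hpd or a 1 hpd library. In every one of these sets of 9 libraries, more paired TUs were called lower than higher at all 4 times. DESeq2 called 104 paired TUs lower at 2 hpd and 171 at 6 hpd.

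**Figure D2:**
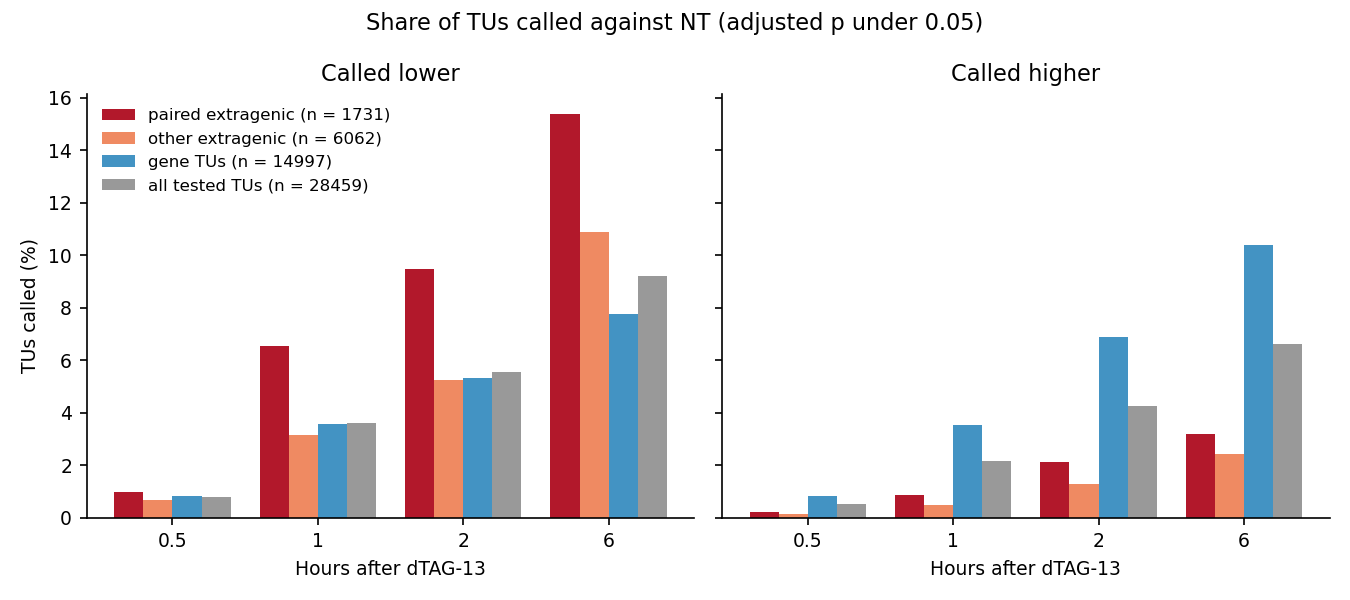
Share of TUs called lower (left) and higher (right) than NT, in percent, at 0.5, 1, 2 and 6 hours after dTAG-13 for paired extragenic TUs, other extragenic TUs, gene TUs and all tested TUs. Paired TUs reach 15.4% called lower at 6 hpd against 9.2% of all TUs, and at most 3.18% are called higher.

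Other extragenic TUs were also called lower more often than higher, with 192 of 6062 lower (3.17%) and 30 higher at 1 hpd and 658 lower (10.9%) and 148 higher at 6 hpd. Of 14997 gene TUs, 535 were lower and 532 higher at 1 hpd, and 1162 were lower and 1556 higher at 6 hpd. Because paired TUs had more fragments than other extragenic TUs, a comparison among TUs that averaged 50 or more fragments was also made. Of these, 58 of 521 paired TUs (11.1%) and 50 of 1094 other extragenic TUs (4.57%) were called lower at 1 hpd, beside 4.34% of all 14959 TUs of that depth. At 6 hpd the shares were 20.9%, 14.6% and 9.74%. The differences between these classes were not tested.

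Falls were also called outside annotated genes. Among the 1228 paired TUs that overlapped no annotated gene on their strand, 82 were lower (6.68%) and 6 higher (0.489%) at 1 hpd, beside 3.61% and 2.15% of all TUs. At 6 hpd, 201 were lower (16.4%) and 19 higher (1.55%), beside 9.2% and 6.61%, with a median log2 fold change of -0.42. Of the 3901 other extragenic TUs outside genes, 511 were lower at 6 hpd (13.1%) and 27 higher (0.692%), with a median of -0.49. Among the 503 paired TUs that did overlap a gene, 31 were lower (6.16%) and 9 higher (1.79%) at 1 hpd, and 65 were lower (12.9%) and 36 higher (7.16%) at 6 hpd, with a median of -0.0077. By layout of the 1-to-1 pairs, 68 of 722 TUs of head-to-head pairs (9.42%), 32 of 606 nested TUs (5.28%), 5 of 134 tail-to-tail TUs (3.73%) and 3 of 144 TUs without overlap (2.08%) were lower at 1 hpd. At 6 hpd these counts were 142 (19.7%), 79 (13%), 10 (7.46%) and 14 (9.72%). The 418 TUs with a partner 5′ end within 1000 bp, the layout closest to a two-way enhancer, had 15 lower (3.59%) and 0 higher at 1 hpd and 40 lower (9.57%) and 9 higher (2.15%) at 6 hpd, so that their share called lower was near that of all TUs.

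Among the TUs that fell early was TU 15586, whose head-to-head partner is TU 16886. Its 5′ end lies 64.3 kb from that of Aldh1a3, which encodes a retinaldehyde dehydrogenase. TU 15586 (chr7:66491968-66507962) read 7.07 and 7.78 CPM in NT, 2.03 and 2.39 (0.5 hpd), 0.564 and 0.626 (1 hpd), 0.607 and 0.234 (2 hpd), and 0.351 and 0.641 (6 hpd). Every depleted library lay below both NT libraries, and the level was lower at 1 than at 0.5 hpd in both. The log2 fold change was -1.77 ± 0.27 (SE, n = 2 libraries per group, edgeR adjusted p = 0.0037) at 0.5 hpd and -3.62 ± 0.33 (adjusted p = 1.1e-05) at 1 hpd. TU 16886 read 14.9 and 17 CPM in NT and 7.84 and 6.78 at 1 hpd, a smaller fall of -1.13 ± 0.17 (adjusted p = 0.00081). The difference of the plus from the minus strand was -2.49 ± 0.35 (partner test, adjusted p = 0.00054) on the log2 scale at 1 hpd.

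TU 14836 and TU 13791 form a head-to-head pair in which the longer TU runs 50995 bp and overlaps Eps8, the gene of an actin-capping and signalling adaptor, on its own strand. The body of TU 14836 lay 2.1 kb from that of the Eps8 TU, and whether it is part of that gene's transcription was not tested. TU 14836 (chr6:137620975-137671969) read 65.5 and 72.3 CPM in NT, 34.5 and 31.5 (0.5 hpd), 28.5 and 27.1 (1 hpd), 30.7 and 30.2 (2 hpd), and 29.5 and 32.7 (6 hpd). All depleted libraries lay below NT and close to one another, with changes of -1.31 ± 0.11 (1 hpd, adjusted p = 5.6e-06) and -1.15 ± 0.11 (6 hpd, adjusted p = 4.7e-06). TU 13791, which starts inside it and runs the other way, read 3.23 and 5.01 CPM (48 and 69 fragments) in NT and 0.188 and 0.512 CPM (3 and 9 fragments) at 1 hpd. That was a change of -3.50 ± 0.44 (adjusted p = 0.00018), and the difference from its partner was -2.17 ± 0.42 (partner test, adjusted p = 0.0062). The weaker strand held 2.66% of the fragments of this pair over all libraries.

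TU 23620 overlapped TU 22586 and TU 22587. Its 5′ end lies 40.7 kb from that of Mrpl42, a mitochondrial ribosomal protein gene, and its body 9.3 kb from that of Socs2, a feedback inhibitor of cytokine signalling. It read 38.4 and 33.6 CPM in NT, 16 and 15.9 (0.5 hpd), 11.2 and 12.5 (1 hpd), 14.4 and 16.8 (2 hpd), and 16.9 and 15.1 (6 hpd). All depleted libraries lay below NT, with the lowest at 1 hpd (-1.60 ± 0.13, adjusted p = 5.8e-06). Its head-to-head partner TU 22587 went from 6.46 and 6.61 CPM in NT to 2.26 and 2.56 at 1 hpd (-1.43 ± 0.22, adjusted p = 0.00089), and the difference between these partners was 0.17 ± 0.23 (partner test, adjusted p = 0.76). At 2 hpd it was 0.72 ± 0.20 (partner test, adjusted p = 0.045), when TU 23620 was called (-1.21 ± 0.13, adjusted p = 2.8e-05) and TU 22587 was not (-0.49 ± 0.20, adjusted p = 0.15). The tail-to-tail partner TU 22586 was called at 6 hpd alone (-1.15 ± 0.31, adjusted p = 0.021), a call lost without NT replicate 2, without either 6 hpd library and with DESeq2.

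TU 14854 fell through the whole course while its partner was not called. Its closest gene 5′ end, 238.5 kb away, was that of Pde3a, which encodes a cyclic nucleotide phosphodiesterase. It read 64.3 and 78.1 CPM in NT, 29.9 and 35 (0.5 hpd), 14.6 and 19.2 (1 hpd), 11.5 and 14.6 (2 hpd), and 7.52 and 12.1 (6 hpd). The change was -1.14 ± 0.18 (0.5 hpd, adjusted p = 0.0052), -2.07 ± 0.19 (1 hpd, adjusted p = 1.1e-05) and -2.84 ± 0.20 (6 hpd, adjusted p = 3.5e-07). Its head-to-head partner TU 13809 read 1.95 and 3.78 CPM in NT, 1.44 and 2.33 (1 hpd), and 3.58 and 3.49 (6 hpd), and these ranges overlap that of NT. The plus strand moved against the minus strand by 1.50 ± 0.34 (partner test, adjusted p = 0.02) at 1 hpd and 3.18 ± 0.31 (partner test, adjusted p = 5.3e-06) at 6 hpd. The window at the start of TU 14854 printed above holds a SOX core word.

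The other early falls named here were those of TU 16265, whose 5′ end lies 38.1 kb from that of Ndufa3, a gene of respiratory complex I, and TU 12160, 16.7 kb from Fbrsl1. TU 16265 read 61.4 and 58.1 CPM in NT and 24.3 and 27.3 at 1 hpd (-1.21 ± 0.12, adjusted p = 2.3e-05). Its head-to-head partner TU 14931 had 7 and 18 fragments in NT and 21 and 24 at 1 hpd, and the plus strand moved against the minus strand by 1.82 ± 0.44 (partner test, adjusted p = 0.032). TU 12160 read 10.5 and 12.6 CPM in NT and 2.63 and 3.19 at 1 hpd (-1.98 ± 0.20, adjusted p = 2.7e-05). Its partner TU 10849, 40450 bp long, read 60.4 and 66.8 CPM in NT and 47.4 and 52.3 at 1 hpd (-0.35 ± 0.11, adjusted p = 0.09). It was called lower at 6 hpd, at 37.2 and 41.9 CPM (-0.68 ± 0.11, adjusted p = 0.00078). The plus strand moved against the minus strand by 1.63 ± 0.20 (partner test, adjusted p = 0.00012) at 1 hpd and 1.31 ± 0.20 (partner test, adjusted p = 0.00049) at 6 hpd.

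**Figure D3:**
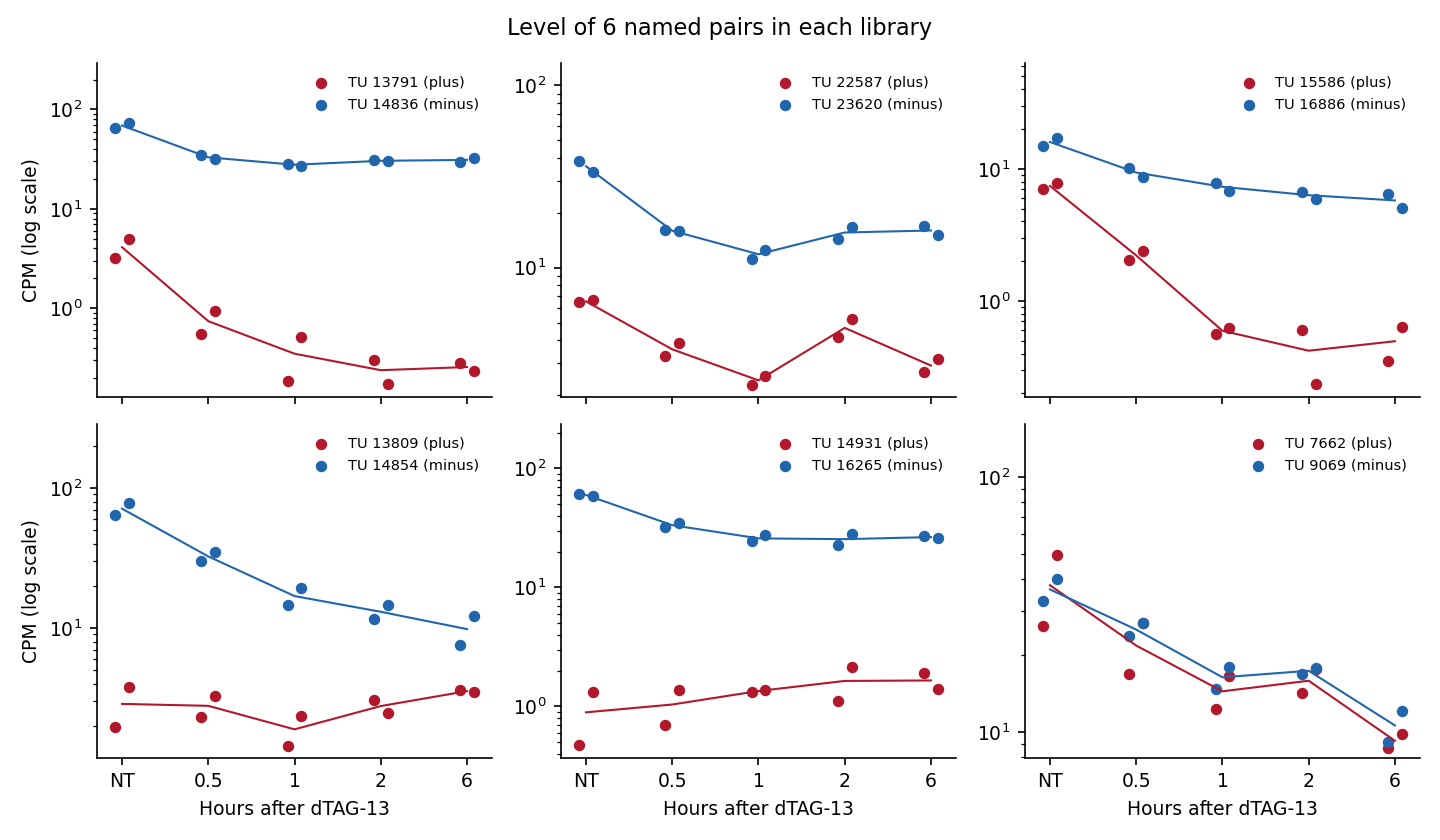
CPM (y axis, log scale, its range set per panel) of both partners of 6 named pairs in each of the 10 libraries at NT and 0.5, 1, 2 and 6 hours after dTAG-13 (x axis). Points are libraries and lines join group means. In 4 panels both strands lie below NT at 6 hpd in both libraries, and TU 14931 and TU 13809 do not. TU 13809 stays between 1.44 and 3.78 CPM while TU 14854 falls from 64.3 and 78.1 to 7.52 and 12.1 CPM.

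The other named falls, chosen at 6 hpd, included TUs inside annotated genes. TU 4842 overlaps Pla2g4e, which encodes a cytosolic phospholipase A2, on its own strand. It read 25.3 and 27.2 CPM in NT, 22.6 and 25.5 (0.5 hpd), 13 and 15.3 (1 hpd), 7.38 and 8.82 (2 hpd), and 4.78 and 4.54 (6 hpd). From 1 hpd on each group lay wholly below the one before it, and the change was -2.49 ± 0.16 (6 hpd, adjusted p = 9.8e-08). TU 3361 on the other strand had 38 and 26 fragments in NT and 1 and 9 at 6 hpd (-2.79 ± 0.55, adjusted p = 0.003). Without 6 hpd replicate 2 its change was -4.85.

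TU 35451 runs 169541 bp and overlaps Dnah8, the gene of an axonemal dynein heavy chain. It read 142 and 163 CPM in NT, 139 and 146 (0.5 hpd), 92.6 and 114 (1 hpd), 55.7 and 61.3 (2 hpd) and 45.7 and 55.8 (6 hpd), below NT in both libraries from 1 hpd on. Its 6 hpd change was -1.59 ± 0.13 (adjusted p = 1.4e-06). The 1 hpd change, -0.56 ± 0.13 (adjusted p = 0.015), was not called without NT replicate 2 or without 1 hpd replicate 1. Nested in it, TU 36394 read 2.83 and 2.33 CPM in NT and 2.11 and 2.8 at 6 hpd, with overlapping ranges, and the plus strand moved against the minus strand by -1.51 ± 0.27 (partner test, adjusted p = 0.0015) at 6 hpd.

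TU 10628 and TU 11935, nested in it, lie 38.4 kb and 27.4 kb from the 5′ end of Srd5a3, which encodes a polyprenol reductase, and both fell. TU 10628 read 20.1 and 21.7 CPM in NT, 21 and 20.8 (0.5 hpd), 14.3 and 13.1 (1 hpd), 10.5 and 9.88 (2 hpd), and 5.76 and 7.1 (6 hpd). TU 11935 read 8.88 and 12.9 CPM in NT, 3.39 and 4.9 (1 hpd) and 1.33 and 1.28 (6 hpd). The 6 hpd changes were -1.69 ± 0.15 (adjusted p = 2.2e-06) and -3.05 ± 0.30 (adjusted p = 7.8e-06), and the plus strand moved against the minus strand by 1.35 ± 0.34 (partner test, adjusted p = 0.019). The 1 hpd calls of both, -0.61 ± 0.13 and -1.39 ± 0.26, were lost if either NT replicate 2 or 1 hpd replicate 1 was left out, and that of TU 10628 also without 1 hpd replicate 2. The start of TU 10628 borders a run of undetermined bases in the assembly, so that where this transcription begins is uncertain.

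TU 34476, 26.8 kb from the 5′ end of Snx29, which encodes a sorting nexin, read 8.95 and 9.96 CPM in NT, 4.18 and 5.56 (0.5 hpd), 2.76 and 2.22 (1 hpd) and 0.843 and 1.34 (6 hpd), with a 6 hpd change of -3.08 ± 0.27 (adjusted p = 2.6e-06). The fall was already called at 0.5 hpd (-0.99 ± 0.22, adjusted p = 0.039), and the 1 hpd change was -1.92 ± 0.24, adjusted p = 0.00016. Its head-to-head partner TU 33748 read 2.15 and 3.12 CPM in NT, 2.38 and 3.13 (1 hpd) and 1.48 and 1.63 (6 hpd), with a 6 hpd change of -0.75 ± 0.30 (adjusted p = 0.1). Only the minus strand was called, and the plus strand moved against it by 2.01 ± 0.31 (partner test, adjusted p = 0.0011) at 1 hpd. TU 4229 is nested in a unit that overlaps Rapgef1, the gene of an exchange factor for RAP1, and had 85 and 84 fragments in NT and 5 and 5 at 6 hpd (-4.18 ± 0.31, adjusted p = 5.6e-07). The unit around it, TU 2728, read 286 and 288 CPM in NT and 272 and 293 at 6 hpd (-0.02 ± 0.10, adjusted p = 0.9).

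Of the 55 paired TUs called higher at 6 hpd, 36 overlapped a gene on their strand, which was 7.16% of the 503 that did, near the 6.61% of all TUs and below the 10.4% of gene TUs. The rises named at 1 hpd were those of TU 34663 in Mb21d2, TU 3701 in Dlgap4, which encodes a synaptic scaffold protein, TU 13728 on the strand of the non-coding RNA gene Gm34755, and TU 30094, 33.6 kb from Unc5a, a netrin receptor gene. TU 34663 read 82.7 and 98.7 CPM in NT and 144 and 166 at 1 hpd, and every depleted library lay above NT (0.77 ± 0.14 at 1 hpd, adjusted p = 0.0031). Its body lay 3.8 kb from that of the Mb21d2 TU, and whether it is part of that gene's transcription was not tested. TU 30094 had 11 and 20 fragments in NT and 62 and 72 at 1 hpd (1.87 ± 0.36, adjusted p = 0.0046), and TU 13728 had 11 and 16 in NT and 52 and 51 at 1 hpd (1.70 ± 0.32, adjusted p = 0.0048). TU 3701 went from 19.9 and 15 to 25.9 and 30.0 CPM (0.68 ± 0.14, adjusted p = 0.008). Each of these calls was lost in some set of 9 libraries, that of TU 34663 without 1 hpd replicate 2, those of TU 30094 and TU 13728 without NT replicate 1, and that of TU 3701 without NT replicate 2 or 1 hpd replicate 2.

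At 6 hpd the named rises included neighbours in Arid5b, which encodes a DNA-binding chromatin regulator. The bodies of these, TU 23269 and TU 23268, lay 21.5 and 0.7 kb from that of the Arid5b TU. Whether they are parts of that gene's transcription was not tested. TU 23269 read 56.7 and 54.2 CPM in NT, 55.2 and 63.7 (1 hpd), 90.5 and 92.6 (2 hpd), and 111 and 119 (6 hpd), with a 6 hpd change of 1.06 ± 0.10 (adjusted p = 7e-06). TU 23268, also in Arid5b on the same strand, went from 34.5 and 36.8 to 69.4 and 78.7 CPM (1.06 ± 0.11, adjusted p = 1.2e-05). Their partners on the other strand, TU 22249 and TU 22247, held 0.901% and 2.74% of the fragments of their pairs and were not called at 6 hpd (adjusted p = 0.63 and 0.5). A further partner of TU 23268, TU 22248, was not called at 6 hpd either (0.65 ± 0.43, adjusted p = 0.33). TU 5835 in Pdgfc, a growth factor gene, read 17.6 and 19 CPM in NT, 12.2 and 14.9 (1 hpd) and 32.8 and 34.7 (6 hpd), with a 6 hpd change of 0.88 ± 0.13 (adjusted p = 0.0002). Its body lay 6.6 kb from that of the Pdgfc TU. TU 12176, 205.1 kb from the 5′ end of Mn1, had 14 and 10 fragments in NT and 65 and 67 at 6 hpd (2.32 ± 0.34, adjusted p = 0.00023).

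Pairs near genes of the pluripotency network were looked at by name. Of 44 listed genes, 43 had a TU of that symbol and 14 (32.6% of the 43) had a paired TU within 100 kb between 5′ ends, which made 13 distinct closest pairs. Of all 14997 gene TUs, 1584 (10.6%) had one. The difference was not tested. At 1 hpd, Klf4 was the only 1 of the 14 genes whose closest pair held a called TU, and there both strands were called. At 6 hpd the pair near Mycn also held a called TU. Klf4 encodes a pluripotency factor, and a cluster of enhancers is known downstream of it in embryonic stem cells, the side on which this pair lies.

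TU 7662 (chr4:55461576-55483238) and TU 9069 (chr4:55437113-55482313) overlap by 20738 bp, and the 5′ end of TU 9069 lies 50.7 kb from that of Klf4. TU 7662 read 26 and 49.4 CPM in NT, 16.9 and 26.8 (0.5 hpd), 12.3 and 16.6 (1 hpd), 14.2 and 17.6 (2 hpd), and 8.64 and 9.84 (6 hpd). TU 9069 read 32.6 and 40.0 CPM in NT, 23.8 and 26.7 (0.5 hpd), 14.8 and 18 (1 hpd), 16.9 and 17.9 (2 hpd), and 9.13 and 12.1 (6 hpd). On both strands all libraries from 1 hpd on lay below NT, and the NT libraries of TU 7662 lay far apart. The changes at 1 hpd were -1.38 ± 0.26 (adjusted p = 0.0049) and -1.14 ± 0.15 (adjusted p = 0.0003), and at 6 hpd -2.02 ± 0.28 (adjusted p = 0.00015) and -1.76 ± 0.16 (adjusted p = 3.5e-06). Without NT replicate 2 or 1 hpd replicate 1, the 1 hpd call of TU 7662 was lost, and without NT replicate 2 its change was -0.82. The difference between the strands at 6 hpd was -0.20 ± 0.23 (partner test, adjusted p = 0.64), and the weaker strand held 47.6% of the fragments.

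The Klf4 TU itself read 102 and 119 CPM in NT, 51.2 and 63.5 at 1 hpd (-0.95 ± 0.17, adjusted p = 0.0031) and 50.9 and 56.7 at 6 hpd (-1.04 ± 0.17, adjusted p = 0.0007). Between it and the pair lies the plus-strand TU 7663, which is not in the paired set and changed by -1.54 at 6 hpd (edgeR adjusted p = 0.0028). Neither printed window of the Klf4 pair held a searched word.

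**Figure D4:**
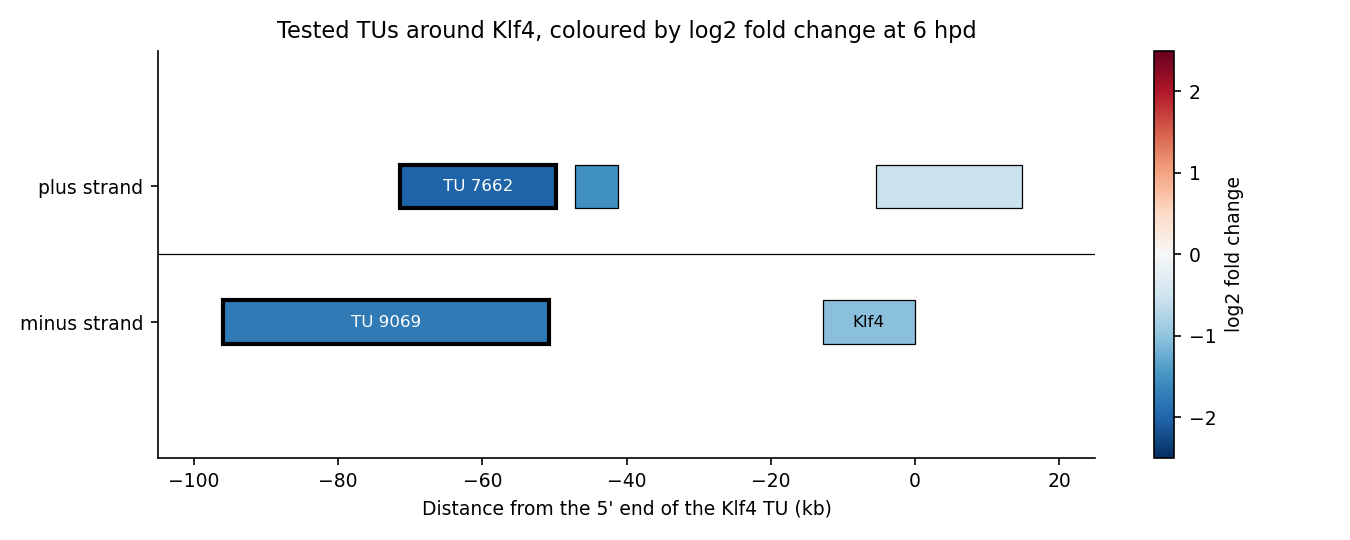
Map of tested TUs around Klf4, as distance from the 5′ end of the Klf4 TU in kb (x axis, negative on its downstream side) and by strand (rows), coloured by log2 fold change at 6 hpd. Thick outlines mark the paired extragenic TU 7662 (-2.02) and TU 9069 (-1.76), and the unlabelled boxes are TU 7663 (-1.54) and Gm34343 (-0.56). TU 7662 and TU 9069 lie over each other on opposite strands.

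Close to Sox2, Nanog, Mycn and Sall4, paired TUs were faint or changed less. TU 5651 and TU 6579, 85.1 kb from Sox2, had 11 and 11, and 13 and 20 fragments in NT, and neither was called at 0.5, 1, 2 or 6 hpd (smallest adjusted p = 0.062). The pair near Nanog, TU 13636 and TU 14688, read 1.82 and 3.2, and 2.15 and 1.96 CPM in NT. TU 14688 read 0.91 and 0.643 CPM at 2 hpd (-1.39 ± 0.37, adjusted p = 0.025), when the Nanog TU changed by -0.51 ± 0.11 (adjusted p = 0.0064). It had no call at 6 hpd (-0.90 ± 0.36, adjusted p = 0.1), when the Nanog TU changed by -0.43 ± 0.11 (adjusted p = 0.012). TU 27943, in the pair 39.7 kb from Mycn, read 9.96 and 11.3 CPM in NT and 6.39 and 6.64 at 6 hpd (-0.70 ± 0.17, adjusted p = 0.013), a call lost without NT replicate 2 or either 6 hpd library. The Mycn TU changed by -1.35 ± 0.18 (1 hpd, adjusted p = 0.00034) and -1.03 ± 0.18 (6 hpd, adjusted p = 0.0012).

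In the pair 66.3 kb from Sall4, neither TU 3871 nor TU 5347 was called at 0.5, 1, 2 or 6 hpd. A further partner of TU 5347, the head-to-head TU 3872, read 11.6 and 15.8 CPM in NT and 8.01 and 8.27 at 6 hpd (-0.74 ± 0.21, adjusted p = 0.027). The call was lost without NT replicate 2, when the change was -0.49, or without either 6 hpd library. TU 5347 read 2.96 and 2.91 CPM in NT and 4.21 and 3.73 at 6 hpd (0.43 ± 0.25, adjusted p = 0.27), and the plus strand moved against the minus strand by -1.16 ± 0.28 (partner test, adjusted p = 0.014). The pairs closest to Tfcp2l1, Zfp42, Tet1, Jarid2, Socs3, Etv5 and Id3 held no TU called at 0.5, 1, 2 or 6 hpd. At the pair near Spry4, a feedback inhibitor of receptor signalling, TU 37303 was higher at 2 hpd, with 31 and 20 fragments against 5 and 6 in NT (1.82 ± 0.49, adjusted p = 0.027). This TU passed the count filter through depleted libraries only, and its body meets that of the Spry4 TU. The Spry4 TU itself changed by 1.25 ± 0.29 (adjusted p = 0.013) at 2 hpd.

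Where both partners of a pair were called, mostly both were lower. Of the 803 pairs, 2, 19, 27 and 66 had both partners called at 0.5, 1, 2 and 6 hpd (0.249%, 2.37%, 3.36% and 8.22%), beside 0.21%, 1.51%, 2.8% and 5.02% of the 7611 opposite-strand pairs of TUs of any kind. Both partners were lower in 2, 19, 26 and 63 of them, and directions were opposite in 1 pair, at 6 hpd. In that pair the call of 1 TU was lost with library totals as the only scaling. Of all called paired TUs, whatever their partner did, 113 of 128 were falls at 1 hpd and 266 of 321 at 6 hpd. Among all opposite-strand pairs with both TUs called, 109 of 115 shared a direction at 1 hpd and 333 of 382 at 6 hpd. A lone partner was called in 85 pairs (10.6%) at 1 hpd and 167 (20.8%) at 6 hpd, beside 10.8% and 23.4% of all pairs, and it was lower in 70 and 118 of them. Where the lone call was a fall, the other strand also had a negative log2 fold change in 61 of 70 pairs at 1 hpd and 97 of 118 at 6 hpd, while 66.6% and 66.3% of all paired TUs lay below 0 at these times. Where it was a rise, the other strand was positive in 7 of 15 and 28 of 49. Across the 803 pairs, which are not independent replicates and share the same libraries, the log2 fold changes of partners had Pearson's r of 0.34, 0.46, 0.44 and 0.48 and Spearman's rho of 0.34, 0.43, 0.45 and 0.49 at 0.5, 1, 2 and 6 hpd. In the 97 pairs that averaged 50 or more fragments on both strands, r was 0.52, 0.51, 0.45 and 0.51.

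**Figure D5:**
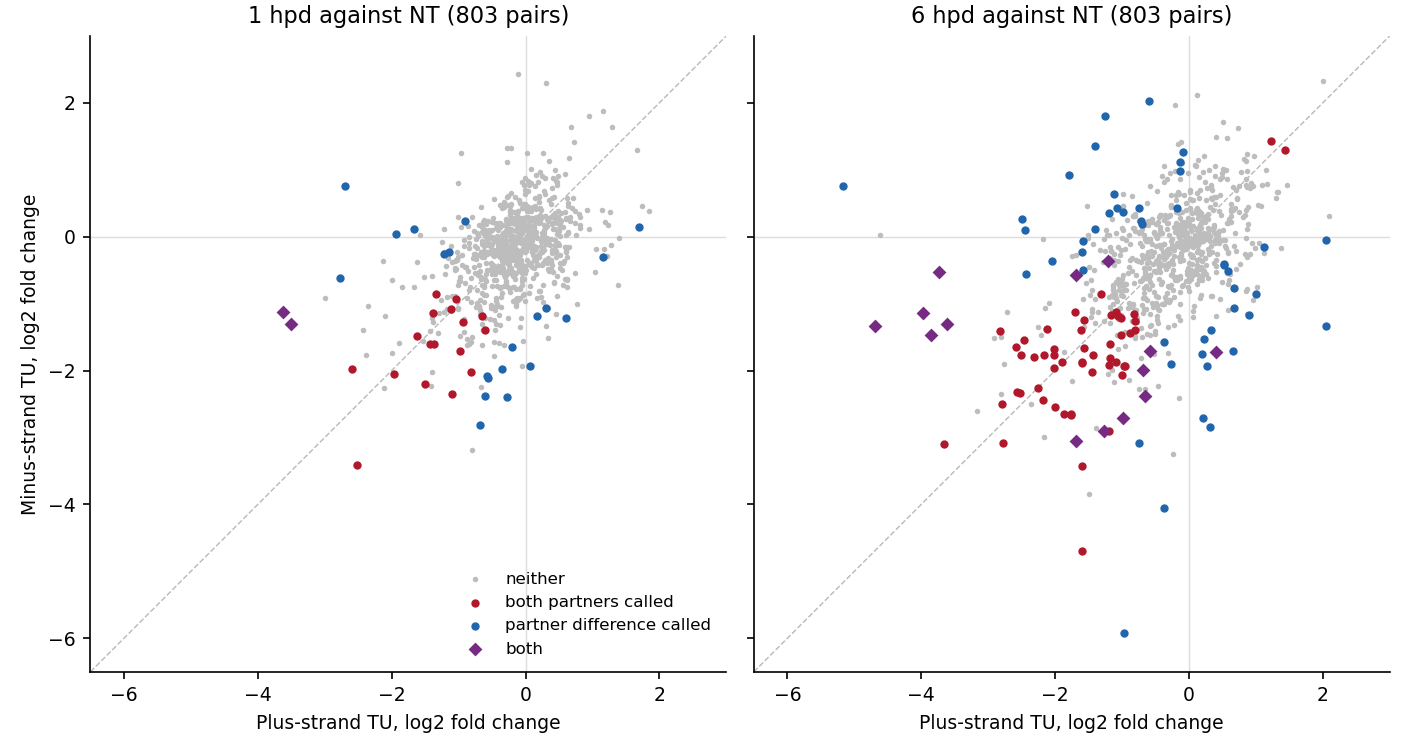
Log2 fold change of the plus-strand TU (x axis) against that of the minus-strand TU (y axis) for 803 pairs at 1 hpd (left) and 6 hpd (right). Colours mark pairs in which both partners were called, the partner difference was called, or both, and the dashed line marks equal change. At 6 hpd, 63 pairs with both partners lower lie in the lower left quadrant.

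A difference between partners was tested in a fit of strand by time over all 7611 opposite-strand pairs of TUs of any kind. Only 97 of the 803 extragenic pairs averaged 50 or more fragments on both strands, and a shallow pair can hide a difference. A fit of pairs of that depth alone called 1, 9, 20 and 24 of these 97 at 0.5, 1, 2 and 6 hpd. The share of all pairs of that depth is not given here. In the fit of all 7611 pairs, 2 of the 803 extragenic pairs (0.249%) were called at 0.5 hpd, beside 0.355% of all pairs. The count was 22 (2.74%, beside 3.3%) at 1 hpd, 40 (4.98%, beside 6.56%) at 2 hpd and 60 (7.47%, beside 9.74%) at 6 hpd. Depth was not matched in this fit, so these shares do not show whether extragenic partners diverge less than others. Without NT replicate 2 the counts were 1, 12, 17 and 26. Leaving out 1 hpd replicate 1 or 2 gave 4 or 8 pairs at that time, leaving out 2 hpd replicate 1 gave 19, and leaving out 6 hpd replicate 1 or 2 gave 27 or 36. Leaving out 0.5 hpd replicate 1 or 2 gave 0 or 1.

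Besides that of TU 13809 and TU 14854, a partner difference with one of the smallest p-values belonged to a nested pair. TU 32139, only 248 bp long, lies inside the 172220 bp TU 32906, which overlaps Pdzd2 on its own strand. TU 32139 read 11.1 and 18.3 CPM in NT, 9.28 and 9.57 (1 hpd), 5.92 and 6.37 (2 hpd), and 2.25 and 2.91 (6 hpd), with a 6 hpd change of -2.49 ± 0.26 (adjusted p = 1.2e-05). TU 32906 read 15.2 and 15.6 CPM in NT and 16.4 and 20.3 at 6 hpd, and the plus strand moved against the minus strand by -2.73 ± 0.25 (partner test, adjusted p = 2.6e-06).

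Between 1 and 6 hpd, 54 paired TUs (3.12%) were lower at the later time and 16 (0.924%) higher, beside 2.92% and 1.96% of all TUs. Without 1 hpd replicate 1 or 2 or 6 hpd replicate 1 or 2, the calls in both directions together were 33, 24, 28 and 38 in place of 70. A joint test of the 4 times called 233 paired TUs (13.5%), beside 12.3% of all TUs, and 131 without NT replicate 2. Genes closest to fallen paired TUs were counted as well, within 100 kb between 5′ ends. At 1 hpd, 11 of 70 such genes (15.7%) were lower and 3 higher, against 24 lower and 38 higher of 619 genes closest to a paired TU that was not called. At 6 hpd the counts were 39 lower (26.5%) and 6 higher of 147, against 46 lower (7.86%) and 81 higher of 585. Of all 14997 gene TUs, 3.57% were lower at 1 hpd and 7.75% at 6 hpd. Of 35 genes closest to a risen paired TU at 6 hpd, 14 (40%) were higher and 0 lower, beside 10.4% of gene TUs called higher. A gene closest to both a called and an uncalled paired TU was counted in each group. The difference between these groups of genes was not tested.

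The pairs with the highest level per kb had another pattern. They were 5 short pairs with TUs of 75 to 1029 bp, in which the weaker strand held 0.638% to 2.84% of the fragments. TU 5765 had 5656 to 7150 fragments per library, a highest over lowest ratio of 1.26, while library totals had a ratio of 2.32. TU 5505 had 1813 to 2238 fragments, and TU 39451 had 319 to 412. The fragment numbers of these 3 TUs varied less between libraries than the depth did, with a coefficient of variation of 7.68%, 6.34% and 8.73% against 25.4% for the library totals. The other strong partners, TU 38075 and TU 38194, had 7.31% and 10.6%. The weak partners, with far fewer fragments, ranged from 19.8% to 38.3%. None of the 10 TUs of these pairs was called at 0.5, 1, 2 or 6 hpd (smallest edgeR adjusted p = 0.21), and the CPM of TU 5765 ran from 271 in the deepest library to 502. The authors had removed duplicate alignments before counting. Whether that or anything else kept these counts from scaling with depth was not tested.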

How the data were processed

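TT_chem-seq libraries of 10 samples in 5 groups were analysed. Per the labels and the study's methods, the authors aligned read pairs to mm10 with BWA 0.7.17-r1188, filtered alignments with SAMtools 1.10 and removed duplicates with Picard 2.12.0. They drew TUs per strand from pooled data with a hidden Markov model on binned coverage and refined their ends. They deposited 1 table with the raw count of fragments per TU and library. TU positions, strands, gene names and classes were taken as the authors deposited them. TUs were grouped by sample labels and columns by name.

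TUs above 10 fragments in 2 or more of the libraries were tested with edgeR 4.0.16 (limma 3.58.1, R 4.3.3) on the raw counts, with TMM factors, 1 coefficient per group over all 10 libraries, quasi-likelihood F-tests and Benjamini-Hochberg adjustment over all tested TUs (threshold 0.05). CPM are raw counts divided by library totals scaled by TMM, to a common library size. Errors are approximate standard errors of the log2 fold change, taken as its absolute value over the square root of the F statistic. That statistic draws on the dispersion over all 10 libraries. The partner test put both strands of a pair in 1 fit with a term per library and tested strand by time. Both tests were tested on simulated data with known changes. Tables were handled in Python 3.11.15 with pandas 2.3.3, NumPy 2.4.6 and SciPy 1.17.1.

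The members, gene lists and motif words were chosen with earlier results of these data known. Named TUs were the 6 lower and 4 higher with the smallest p at 1 and at 6 hpd whose libraries lay outside the NT range, the 5 pairs highest per kb in NT, the closest pair of each listed gene and the 3 pairs with the smallest partner-difference p, each with partners. One pair that this rule names is not reported here. TU 7663 and Gm34343 lie outside this rule and are given because they fall on the Klf4 map. Sequence windows of 300 bases were centred on each TU's 5′ end and not on pair midpoints as first planned, because most pairs have 5′ ends over 1000 bp apart. No chromosome had a TU past its GRCm38.p6 length. Counts have no molecular identifiers. The alternatives were DESeq2 1.42.0, other scalings and count filters, only the groups compared, a replicate block, each library left out, pair distances of 500 and 2000 bp, and, added after seeing the data, only TUs outside annotated genes.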

Additional observations from a re-analysis of the deposited data

Results flagged for a closer look

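The changes of 14 named TUs against NT differed between 1 and 6 hpd by edgeR's test of 6 against 1 hpd, adjusted over all tested TUs. The log2 difference was -2.82 for TU 4229, -2.43 for TU 37879 near Spry4, -1.86 for TU 32139, -1.67 for TU 11935, -1.60 for TU 4842, -1.16 for TU 34476, -1.08 for TU 10628, -1.02 for TU 35451, -0.77 for TU 14854 and -0.62 for TU 9069 near Klf4. It was 1.32 for TU 5835, 1.03 for TU 12176, 0.95 for TU 23269 and 0.84 for TU 23268. TU 37879 rests on 12 and 18 fragments at 1 hpd and 3 and 2 at 6 hpd, and was not called against NT at 0.5, 1, 2 or 6 hpd. The groups hold 2 libraries each, too few to look for a single deviating library.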

How the results depend on the processing

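Counts at 0.5, 1, 2 and 6 hpd are given in that order. With the replicate block (replicate number as a term), 57, 194, 279 and 406 paired TUs were lower and 13, 50, 82 and 102 higher, 448 differed at any time, 176 differed between 1 and 6 hpd, and 18, 48, 70 and 93 pairs had a partner difference. The labels do not say that the numbers pair the libraries, and same-numbered libraries deviated together with correlations of 0.0742 to 0.291 over 10 pairs of groups. In a new fit and adjustment over only the TUs that averaged 50 or more counts, which the shares in the report did not use, 10, 55, 86 and 116 were lower, 1 was higher at 0.5 hpd, 124 differed at any time, and 1, 9, 20 and 24 pairs had a partner difference, with fewer TUs tested. Outside annotated genes, 11 were lower at 0.5 hpd and 6, 13 and 19 higher at 1, 2 and 6 hpd. With library totals as the only scaling, 2, 6 and 20 were higher at 0.5, 1 and 2 hpd. DESeq2 called 104 lower at 2 hpd and 171 at 6 hpd. In fits of only the groups compared, 40 were higher at 1 hpd and 127 differed between 1 and 6 hpd. Among pairs without overlap, 0, 1, 1 and 1 had a partner difference. The cause of these shifts was not tested.

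Leaving out each library in turn gave 4 to 24, 38 to 123, 54 to 166 and 117 to 302 lower, 0 to 4, 3 to 26, 13 to 52 and 26 to 72 higher, 131 to 281 at any time, 24 to 81 between 1 and 6 hpd, and 0 to 3, 4 to 26, 17 to 41 and 26 to 64 partner differences. Of 55 values of named TUs under 14 alternatives each, 0 changed direction, 39 kept their call in all and 16 lost it in some. The low depth of most paired TUs limits what could be called.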
